A study of Homo sapiens with 4 samples.

Results

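The genes described here encode collagens, laminins and other glycoproteins of the extracellular matrix, with a few genes that modify or bind it. The rule picks them by symbol: every gene named COL, a number, A and a number, every laminin alpha, beta or gamma chain gene (LAMA, LAMB, LAMC), and 22 further named genes such as TNC, FN1, SPARC and LOX. Of those 22 names, 21 were found and VCAN was not analysed here. The rule itself used no measured value, but the genes were chosen with earlier results of these data known. It gave 64 genes of 17141. Both marker genes named with the rule, TNC and FN1, were detected in all 4 libraries. TAGLN, which the rule includes, encodes an actin-binding protein inside the cell rather than a matrix protein.

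The RNA came from LNCaP, a human prostate cancer cell line that responds to androgen and was first grown from a lymph node metastasis. LNCaP-RRM2 cells overexpressed RRM2, the small subunit of ribonucleotide reductase, from a lentiviral vector, and LNCaP-EV cells carried the empty vector. Both were stable lines, and the methods describe puromycin selection for lines of this kind. They were grown in standard culture with no further treatment, so no other cell type was present by design. Each group had 2 libraries, and library totals ranged from 26601061 to 32601519 counts. Whether the 2 libraries of each line were made from separate cultures, and whether a line was 1 clone, is not stated. The p-values therefore reflect only how far these particular libraries spread, and that spread may be technical. RRM2 itself had 318 and 343 CPM in LNCaP-EV and 9287 and 8976 CPM in LNCaP-RRM2, where CPM is the count after scaling each library to a common total, in the direction the labels give (log2 fold change 4.79, SE 0.10, edgeR adjusted p = 0.000282). All 11 markers of the luminal prostate cell were detected, with a summed level of 7773 and 7606 CPM in LNCaP-EV and 11545 and 11878 CPM in LNCaP-RRM2, and 4 of them (ACPP, TMPRSS2, KLK3 and SLC45A3) were called higher. Among all genes tested 12.5% were called higher. Of 13 fibroblast and smooth muscle markers 5 were in the table and 8, among them DCN and PDGFRA, were not analysed here. The summed level of these 5 was 4.36 and 3.78 CPM in LNCaP-EV and 7.66 and 7.33 CPM in LNCaP-RRM2. The 2 of 4 tested that were called higher were PDGFRB, with 0.348 and 0.374 CPM in LNCaP-EV and 1.29 and 0.990 CPM in LNCaP-RRM2 (log2 fold change 1.65, SE 0.33, edgeR adjusted p = 0.0139), and ACTA2, with 3.45 and 2.51 CPM in LNCaP-EV and 5.34 and 5.57 CPM in LNCaP-RRM2 (log2 fold change 0.87, SE 0.20, edgeR adjusted p = 0.0215). ACTG2 was not called (log2 fold change 1.14, adjusted p = 0.101 in edgeR). PDGFRB and ACTG2 passed the low-count filter through the LNCaP-RRM2 libraries alone, so they had to be higher there to be tested. PDGFRB and ACTA2 each lost the call without LNCaP-RRM2 replicate 1 and without replicate 2. LUM was between 0.221 and 0.412 CPM in every library, and MYH11 was at 0 in 1 LNCaP-RRM2 library. Of 10 endothelial markers 5 were in the table, with a summed level of 22.9 and 13.5 CPM in LNCaP-EV and 40.6 and 32.4 CPM in LNCaP-RRM2, most of it from EGFL7 and VWF. PECAM1, CDH5 and KDR were not analysed here. The part of these marker genes in the matrix results was not tested.

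Collagens are built from 3 alpha chains wound into a triple helix, and each collagen type needs its own set of chains. Laminins are trimers of 1 alpha, 1 beta and 1 gamma chain, which assemble with collagen IV, nidogens, perlecan and agrin into the basement membrane under an epithelium. Fibronectin and tenascin-C are large multimeric glycoproteins of the interstitial matrix that cells bind through integrins. Carcinoma cells make part of the matrix around them, and its composition is much studied in invasion and in the epithelial-mesenchymal transition.

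The start regions of 4 genes are shown because their transcripts stood at the ends of the results or share a control region. TNC rose most among the matrix genes averaging 1 CPM or more, FN1 was the 1 gene called lower, and COL4A5 and COL4A6 lie head to head on the X chromosome. Each window runs from 250 bases before the RefSeq start to 50 bases after it in GRCh38.p14, 5′ to 3′ on the strand of the gene. Capitals mark the GC box (GGGCGG), the CCAAT box (CCAAT), the cyclic AMP response element (TGACGTCA) and the TATA box (TATAAA), searched on both strands, so that ATTGG in capitals is a CCAAT box on the other strand. The windows are TNC at chr9:115118108-115118407 (minus strand), FN1 at chr2:215436019-215436318 (minus strand), COL4A5 at chrX:108439588-108439887 (plus strand) and COL4A6 at chrX:108439409-108439708 (minus strand).
TNC: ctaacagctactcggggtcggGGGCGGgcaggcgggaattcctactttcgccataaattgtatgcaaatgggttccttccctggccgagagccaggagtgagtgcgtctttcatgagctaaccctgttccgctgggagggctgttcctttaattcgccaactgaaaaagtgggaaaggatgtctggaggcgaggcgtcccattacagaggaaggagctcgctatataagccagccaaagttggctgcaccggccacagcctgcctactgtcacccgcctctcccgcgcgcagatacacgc
FN1: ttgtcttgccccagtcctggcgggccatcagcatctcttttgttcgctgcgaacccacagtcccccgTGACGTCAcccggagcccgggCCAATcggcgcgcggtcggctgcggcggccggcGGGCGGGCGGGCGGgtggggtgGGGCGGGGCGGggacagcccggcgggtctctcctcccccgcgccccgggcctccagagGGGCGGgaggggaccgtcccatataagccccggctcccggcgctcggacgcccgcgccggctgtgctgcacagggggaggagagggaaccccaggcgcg
COL4A5: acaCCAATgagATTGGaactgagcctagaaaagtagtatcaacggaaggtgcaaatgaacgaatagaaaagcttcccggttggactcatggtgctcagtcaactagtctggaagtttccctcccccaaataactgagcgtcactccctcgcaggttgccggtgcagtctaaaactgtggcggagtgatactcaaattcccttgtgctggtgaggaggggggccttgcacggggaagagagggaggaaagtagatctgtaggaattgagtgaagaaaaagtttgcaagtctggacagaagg
COL4A6: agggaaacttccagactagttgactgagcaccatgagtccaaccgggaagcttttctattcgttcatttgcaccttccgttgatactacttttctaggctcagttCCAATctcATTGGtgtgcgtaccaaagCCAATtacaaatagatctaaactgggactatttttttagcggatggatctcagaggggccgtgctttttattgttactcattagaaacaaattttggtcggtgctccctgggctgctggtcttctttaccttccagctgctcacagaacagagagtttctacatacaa
The FN1 window held 6 GC boxes, some of which overlap each other, 1 CCAAT box and 1 cyclic AMP response element, and 76.7% of its bases were G or C. The TNC window held 1 GC box and no CCAAT box. The COL4A5 and COL4A6 windows share 121 bases, from 108439588 to 108439708, and the same pair of CCAAT boxes lies in the shared stretch. A window was available for 50 of the 64 genes. A GC box was present in 64.0% of these 50 windows, against 67.9% of the windows of genes tested and 44.6% of all 27305 windows, and a CCAAT box in 30.0%, 36.8% and 35.7%. The cyclic AMP response element was in 4.0%, 3.07% and 1.98% of the same sets, and the TATA box in 8.0%, 6.04% and 12.0%. A match describes letters in a window and not a bound site.

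Many matrix genes were called higher in LNCaP-RRM2, with some in each group of collagens, laminins and glycoproteins and others uncalled in the same groups, while FN1, with LAMC1 the most abundant of them per kilobase, was called lower. Of the 40 tested matrix genes that averaged 1 CPM or more, 25 rose and 1 fell, against 12.0% higher and 8.49% lower of all 13593 genes tested at that level. Their median log2 fold change was 1.05, and that of all genes at that level was -0.06. That average is over both groups, so a gene can reach it through its LNCaP-RRM2 level. In every library 41 matrix genes were past the level of the low-count filter. Of these 25 rose and 1 fell, against 11.5% and 8.25% of all 14102 such genes. A call, also written rose or fell, needed a fold change over 1.5 and an adjusted p under 0.05 (edgeR quasi-likelihood test, Benjamini-Hochberg adjustment over all genes tested). Over all levels, 53 of the 64 genes passed the filter on low counts, and 32 were called higher and 1 lower, where 12.5% and 7.96% of all 15162 genes tested were called. At an unadjusted p below 0.05 in edgeR 38 were higher and 2 lower, where 23.0% and 29.5% of all genes tested were, and DESeq2 and limma-voom also called FN1 alone as lower. Of the 53, 7 genes passed through the LNCaP-RRM2 libraries alone (COL4A4, COL12A1, COL13A1, COL17A1, COL24A1, COL27A1 and TNXB), and among all genes of that kind 51.4% were called higher. These 7 had to be higher in LNCaP-RRM2 to be tested, so the 32 calls are given as a description. A further 4 genes had only 1 LNCaP-EV library past the filter level and needed a LNCaP-RRM2 library to be tested. Of these 4, 3 were called higher and 0 lower, against 15.7% and 0% of all such genes. The remaining 11 genes, BGN, COL10A1, COL14A1, COL1A2, COL2A1, COL4A1, COL4A3, COL8A2, FBLN1, LAMA2 and NID1, had 0 to 12 counts in a library and were not tested. The 2 LNCaP-RRM2 libraries both exceeded the 2 LNCaP-EV libraries for 43 of the 53 genes and were both below them for 6, where 34.5% and 40.9% of all genes tested did so. Less RNA per cell and fewer cells that make a transcript cannot be told apart in these bulk samples.

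**Figure D1:**
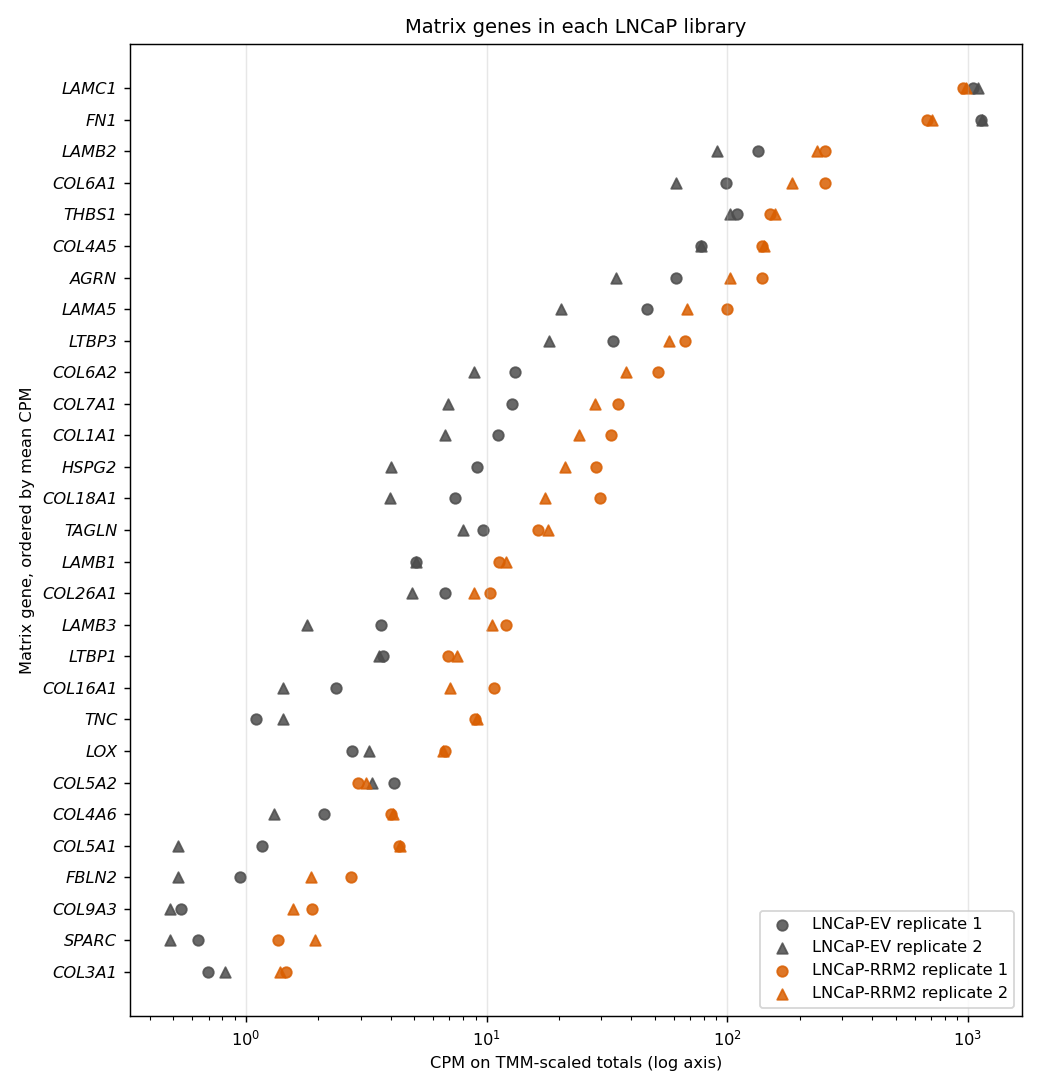
Level of 29 matrix genes in each library, in CPM on a log axis, ordered by mean level, with 1 point per library (circles replicate 1, triangles replicate 2, grey LNCaP-EV, orange LNCaP-RRM2). The orange points lie right of both grey points for every gene except LAMC1, FN1 and COL5A2.

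Base composition and single libraries moved with these counts. Transcripts rich in G and C were higher in LNCaP-EV replicate 1 than in replicate 2 of the same group, with a median log2 ratio of 0.72 for the 23 tested matrix genes over 60% GC and 0.00 for the 13 under 50%. The medians of all genes in the same classes were 0.59 and -0.09. The LNCaP-RRM2 pair leaned the same way, replicate 1 over replicate 2, with medians of 0.27 and -0.11 for the matrix genes. For all genes these were 0.22 and -0.05. Of the 23 GC-rich matrix genes 19 were called higher (82.6%, against 24.0% of all genes of that class), of the 17 between 50 and 60% GC 8 (47.1%, against 15.6%), and of the 13 under 50% GC 5 (38.5%, against 7.72%). When the trend of the log ratio with GC was removed from each library, the calls came to 16, 9 and 7 in these classes, against 11.1%, 11.9% and 10.05% of all genes. The total was again 32 higher and 1 lower, while 10.9% and 10.6% of all genes tested were called. The median log2 fold change of the tested matrix genes was then 0.85. That of all genes tested went from -0.03 to -0.12 with the removal. The 2 fits shared 29 of the higher genes and FN1. COL26A1, LTBP3 and TNXB lost the call, and 3 others, among them THBS1 and COL12A1, gained it. The fold change of 28 of the 32 genes was smaller after the removal, and values after it are given below as GC-adjusted. Leaving out LNCaP-RRM2 replicate 1 left 6 of the 32 calls and leaving out replicate 2 left 15, and those fits take the spread from the LNCaP-EV pair alone. Without LNCaP-EV replicate 1 or 2, 29 and 30 of the 32 kept the call. The log2 fold change stayed above 0 for all 32 in each of these 4 fits, with a lowest value of 0.57. FN1, TNC, COL4A5, COL5A1, LAMB1, COL6A2 and COL16A1 kept their call in all 4.

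**Figure D2:**
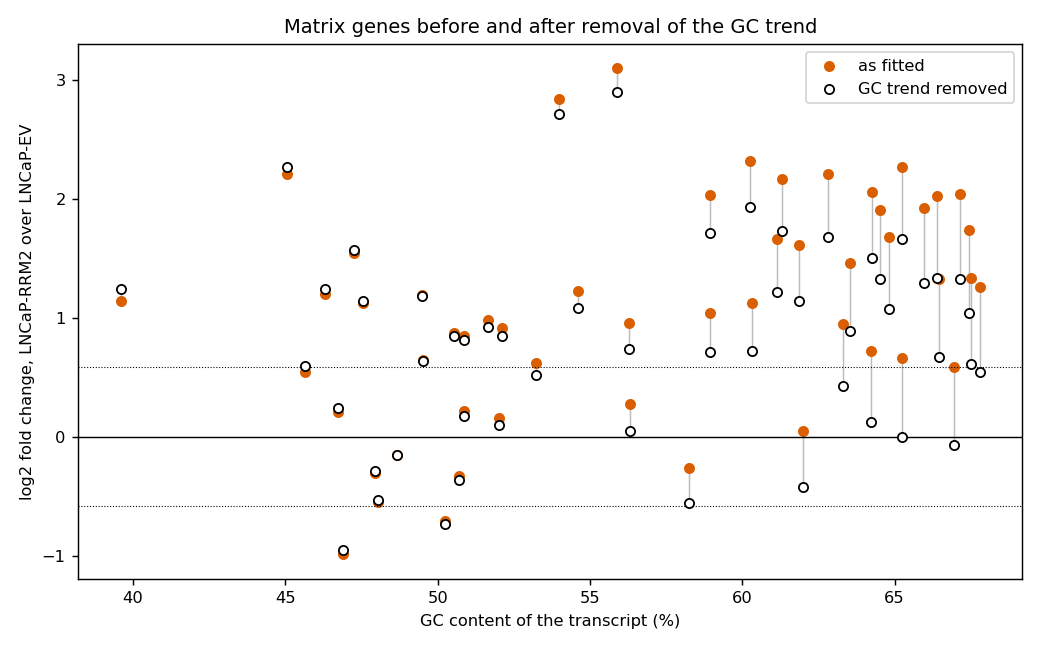
Log2 fold change of LNCaP-RRM2 over LNCaP-EV against the GC content of the transcript in percent for the 53 tested matrix genes, as fitted (filled) and after removal of the GC trend (open), with dotted lines at a fold change of 1.5. The open points lie furthest below the filled ones over 60% GC, and the median goes from 1.13 to 0.85. The median of all genes tested, not plotted, goes from -0.03 to -0.12.

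Among the adhesive and basement membrane glycoproteins, 4 of the 8 genes tested rose and FN1 fell. Among all genes tested 12.5% rose and 7.96% fell. FN1 (chr2:215360440-215436070, minus strand) encodes fibronectin, the integrin ligand that cells assemble into fibrils. It had 1127 and 1142 CPM in LNCaP-EV and 678 and 712 CPM in LNCaP-RRM2. The LNCaP-RRM2 libraries lay well below the LNCaP-EV libraries, and the 2 libraries of each group were close together. The level in LNCaP-EV was 1.63-fold that in LNCaP-RRM2 (log2 fold change -0.71, SE 0.07, edgeR adjusted p = 0.00293; GC-adjusted -0.73). Without LNCaP-RRM2 replicate 1 or 2 its adjusted p was 0.0496 and 0.0403. TNC (chr9:115019576-115118257, minus strand) encodes tenascin-C, a glycoprotein that modulates adhesion to fibronectin and is made during development and wound repair. It had 1.11 and 1.42 CPM in LNCaP-EV and 8.92 and 9.13 CPM in LNCaP-RRM2, low in LNCaP-EV and alike in the 2 libraries of each group. It rose 7.16-fold (log2 fold change 2.84, SE 0.19, edgeR adjusted p = 0.00209), and the GC-adjusted log2 fold change was 2.71. The transcript of TNC is 53.97% GC and that of FN1 50.2%, and the 2 LNCaP-EV libraries differed little in either.

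The heparan sulfate proteoglycans of the basement membrane rose with TNC. AGRN encodes agrin, which binds laminins and clusters receptors at the neuromuscular junction, and had 61.4 and 34.6 CPM in LNCaP-EV and 139.9 and 103 CPM in LNCaP-RRM2. It rose 2.53-fold (log2 fold change 1.34, SE 0.29, edgeR adjusted p = 0.0178), with a GC content of 67.5% and a GC-adjusted log2 fold change of 0.61. HSPG2, which encodes perlecan, had 9.11 and 4.003 CPM in LNCaP-EV and 28.4 and 21.1 CPM in LNCaP-RRM2. It rose 3.75-fold (log2 fold change 1.91, SE 0.38, edgeR adjusted p = 0.0142; GC-adjusted 1.33). The LNCaP-EV libraries differed from each other for both genes, replicate 1 being the higher, but neither reached a LNCaP-RRM2 library. Without LNCaP-RRM2 replicate 1, AGRN and HSPG2 lost the call together with TNXB, with adjusted p between 0.0738 and 0.168. THBS1, the gene of the adhesive glycoprotein thrombospondin-1 that inhibits angiogenesis, had 109 and 103 CPM in LNCaP-EV and 151 and 158 CPM in LNCaP-RRM2. Its 1.46-fold difference was under the fold limit (log2 fold change 0.55, SE 0.07, edgeR adjusted p = 0.00476), and its GC-adjusted log2 fold change of 0.60 was just over it. THBS3 and the nidogen gene NID2 were not called, with log2 fold changes of 0.28 and 0.16. TNXB had 2 and 4 counts in the LNCaP-EV libraries against 15 and 13 in the LNCaP-RRM2 libraries and a log2 fold change of 2.27. As it passed the low-count filter through the LNCaP-RRM2 libraries alone, TNXB had to be higher there to be tested. It overlaps genes of the complement region on the other strand and has the near-identical copy TNXA, so its counts are uncertain, and it lost the call also without LNCaP-EV replicate 1 (adjusted p = 0.0784) or LNCaP-RRM2 replicate 2 (0.114).

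Of the basement membrane and network collagens, 4 of 6 genes tested rose and 0 fell (edgeR), among the 10 measured. The shares of all genes tested were 12.5% and 7.96%. Collagen IV forms the sheet-like network of basement membranes, and its 6 chain genes lie in 3 head-to-head pairs. COL4A5 (chrX:108439844-108697545, plus strand) had 77.9 and 78.00 CPM in LNCaP-EV and 139 and 142 CPM in LNCaP-RRM2. The libraries of a group were nearly the same and the groups far apart (1.80-fold; log2 fold change 0.85, SE 0.06, edgeR adjusted p = 0.00244; GC-adjusted 0.81). COL4A6 (chrX:108155607-108439497, minus strand) has 346 bases between its gene body and that of COL4A5 in the deposited positions. Its chain pairs with COL4A5 chains in some epithelial basement membranes. COL4A6 had 2.12 and 1.31 CPM in LNCaP-EV and 4.02 and 4.11 CPM in LNCaP-RRM2. It also rose (2.34-fold; log2 fold change 1.23, SE 0.26, edgeR adjusted p = 0.0158; GC-adjusted 1.08). The gene bodies of the partner pair on chromosome 13 are 109 bases apart, and its member COL4A2 had 2.15 and 1.08 CPM in LNCaP-EV and 1.66 and 1.72 CPM in LNCaP-RRM2. The groups overlapped for COL4A2 (log2 fold change 0.05, SE 0.35, edgeR adjusted p = 0.926), and its partner COL4A1 had only 4 and 5 counts in the LNCaP-EV libraries against 3 and 4 in the LNCaP-RRM2 libraries and was not tested. In the pair on chromosome 2, 5 bases apart, COL4A4 had 8 and 9 counts in the LNCaP-EV libraries against 12 and 13 in the LNCaP-RRM2 libraries and was not called (log2 fold change 0.65, SE 0.40, edgeR adjusted p = 0.244), and COL4A3 was not tested.

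COL7A1 and COL18A1 showed larger fold changes at a lower level than COL4A5. COL7A1 encodes the collagen of the anchoring fibrils that tie basement membrane to stroma, and had 12.7 and 6.92 CPM in LNCaP-EV and 35.00 and 28.3 CPM in LNCaP-RRM2. It rose 3.20-fold (log2 fold change 1.68, SE 0.29, edgeR adjusted p = 0.00991; GC-adjusted 1.08). COL18A1, whose product carries heparan sulfate chains and releases the angiogenesis inhibitor endostatin, had 7.40 and 3.97 CPM in LNCaP-EV and 29.7 and 17.5 CPM in LNCaP-RRM2. It rose 4.12-fold (log2 fold change 2.04, SE 0.38, edgeR adjusted p = 0.0112; GC-adjusted 1.33). All LNCaP-RRM2 libraries lay above the LNCaP-EV libraries for both genes, which in LNCaP-EV were higher in replicate 1. COL7A1, COL18A1 and COL4A6 lost the call without LNCaP-RRM2 replicate 1 (adjusted p 0.0600 to 0.0862), and COL4A6 also without replicate 2 (adjusted p = 0.0812).

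**Figure D3:**
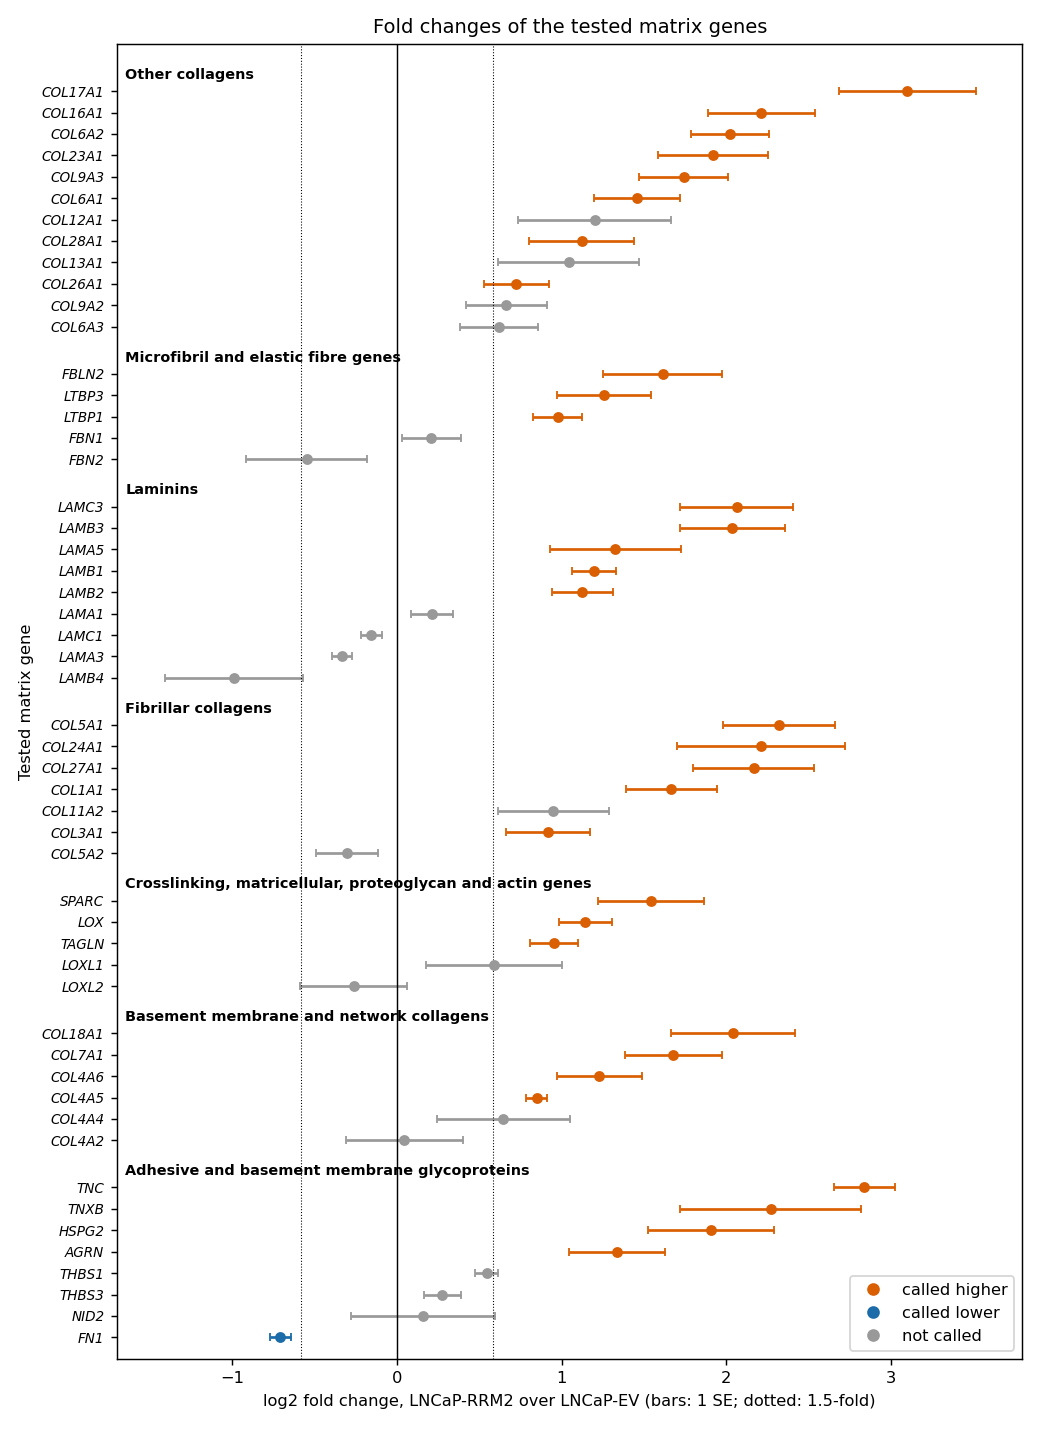
Log2 fold change of LNCaP-RRM2 over LNCaP-EV for tested matrix genes by group, with bars of 1 approximate standard error and dotted lines at a fold change of 1.5 in either direction. Called genes stand right of the line (32 genes, orange) except FN1 (blue), and the grey genes were not called.

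Among fibrillar collagens, which form the banded fibrils of connective tissue, 5 of 7 genes tested rose and 0 fell (edgeR), of 9 measured. The shares of all genes tested were 12.5% and 7.96%. COL1A1, the alpha1 chain of collagen I, had 11.1 and 6.73 CPM in LNCaP-EV and 32.8 and 24.2 CPM in LNCaP-RRM2. It rose 3.18-fold (log2 fold change 1.67, SE 0.28, edgeR adjusted p = 0.00860; GC-adjusted 1.22). The gene of its usual partner chain, COL1A2, had 4 and 5 counts in the LNCaP-EV libraries against 3 and 5 in the LNCaP-RRM2 libraries and was not tested. COL5A1, the alpha1 chain of the collagen V that starts and limits collagen I fibrils, had 1.17 and 0.524 CPM in LNCaP-EV and 4.31 and 4.36 CPM in LNCaP-RRM2. The LNCaP-RRM2 libraries were alike, and COL5A1 rose (log2 fold change 2.32, SE 0.34, edgeR adjusted p = 0.00634; GC-adjusted 1.94). Its partner chain gene COL5A2 had 4.14 and 3.33 CPM in LNCaP-EV and 2.91 and 3.15 CPM in LNCaP-RRM2. It was lower in both LNCaP-RRM2 libraries but not called (log2 fold change -0.30, SE 0.19, edgeR adjusted p = 0.240). COL3A1, which lies 19168 bases from COL5A2 on chromosome 2, had 0.696 and 0.823 CPM in LNCaP-EV and 1.47 and 1.39 CPM in LNCaP-RRM2 and rose 1.89-fold (log2 fold change 0.92, SE 0.26, edgeR adjusted p = 0.0363; GC-adjusted 0.85). COL3A1 is close to the counting limit, and DESeq2 did not call it (adjusted p = 0.226). Below 1 CPM, COL27A1 had 8 and 8 counts in the LNCaP-EV libraries against 28 and 40 in the LNCaP-RRM2 libraries and COL24A1 had 8 and 5 counts in the LNCaP-EV libraries against 19 and 38 in the LNCaP-RRM2 libraries, with log2 fold changes of 2.17 and 2.21. Both passed the low-count filter through the LNCaP-RRM2 libraries alone, so they had to be higher there to be tested. Without LNCaP-RRM2 replicate 1 the 4 genes other than COL5A1 lost the call (adjusted p 0.0519 to 0.220), without replicate 2 COL3A1, COL27A1 and COL24A1 did (0.0791 to 0.163), and without LNCaP-EV replicate 1 COL3A1 did (0.109).

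Of the other collagens, 8 of 12 genes tested rose and 0 fell (edgeR), of 13 measured, where 12.5% and 7.96% of all genes tested did. COL6A1 and COL6A2 encode chains of collagen VI, the beaded microfibril that links cells and basement membrane to the stroma, and they are neighbours on chromosome 21 with 93069 bases between them. COL6A1 had 98.7 and 61.2 CPM in LNCaP-EV and 255 and 185 CPM in LNCaP-RRM2. It was the most abundant collagen gene per kilobase and rose 2.75-fold (log2 fold change 1.46, SE 0.26, edgeR adjusted p = 0.0102; GC-adjusted 0.89). COL6A2 had 13.1 and 8.83 CPM in LNCaP-EV and 51.4 and 37.99 CPM in LNCaP-RRM2 and rose 4.06-fold (log2 fold change 2.02, SE 0.24, edgeR adjusted p = 0.00407; GC-adjusted 1.34). The groups were separate for both genes, with replicate 1 the higher library in each group. COL6A3, the third chain, had 1.11 and 0.935 CPM in LNCaP-EV and 1.55 and 1.61 CPM in LNCaP-RRM2. Its log2 fold change of 0.62 was past the fold limit but not the adjusted p (edgeR, 0.0843).

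The remaining collagens of this class were at low levels. COL16A1, a fibril-associated collagen, had 2.37 and 1.42 CPM in LNCaP-EV and 10.8 and 7.04 CPM in LNCaP-RRM2 and rose 4.64-fold (log2 fold change 2.21, SE 0.32, edgeR adjusted p = 0.00632; GC-adjusted 1.68). COL9A3, a chain of the cartilage collagen IX, had 0.538 and 0.486 CPM in LNCaP-EV and 1.88 and 1.58 CPM in LNCaP-RRM2 and rose 3.34-fold (log2 fold change 1.74, SE 0.27, edgeR adjusted p = 0.00740; GC-adjusted 1.04). COL26A1 had 6.70 and 4.90 CPM in LNCaP-EV and 10.3 and 8.91 CPM in LNCaP-RRM2, and its rise of 1.65-fold (log2 fold change 0.72, SE 0.20, edgeR adjusted p = 0.0340) was not called once the GC trend was removed (0.13, adjusted p = 0.451). COL17A1, the transmembrane collagen of hemidesmosomes, had 3 and 5 counts in the LNCaP-EV libraries against 35 and 31 in the LNCaP-RRM2 libraries. It showed the highest fitted fold change of the matrix genes (log2 fold change 3.10, SE 0.42, edgeR adjusted p = 0.00525), at a level of few counts in LNCaP-EV. COL17A1, COL12A1 and COL13A1 passed the low-count filter through the LNCaP-RRM2 libraries alone, so they had to be higher there to be tested. COL23A1 had 16 and 8 counts in the LNCaP-EV libraries against 45 and 40 in the LNCaP-RRM2 libraries and COL28A1 had 12 and 11 counts in the LNCaP-EV libraries against 22 and 25 in the LNCaP-RRM2 libraries, with log2 fold changes of 1.92 and 1.12. Without LNCaP-RRM2 replicate 1, COL6A1, COL26A1, COL9A3, COL23A1, COL17A1 and COL28A1 lost the call (adjusted p 0.0576 to 0.195), and without replicate 2 COL26A1, COL9A3, COL23A1 and COL28A1 did (0.0512 to 0.225). COL28A1 lost it also without LNCaP-EV replicate 1 (0.114) and, with COL26A1, without LNCaP-EV replicate 2, where COL26A1 was under the fold limit (log2 fold change 0.57).

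Summed over all 32 collagen genes, the level was 249 and 187 CPM in LNCaP-EV and 596 and 484 CPM in LNCaP-RRM2. By the means it was 2.48-fold higher, and the sum was not adjusted for GC. Of the 25 collagens tested 17 were called higher and 0 lower, and at an unadjusted p below 0.05 in edgeR 21 were higher and 0 lower, beside the shares of all genes given above. Of these 25, 6 passed the filter through the LNCaP-RRM2 libraries alone, and 14 of the other 19 were called higher. Among these 14, COL23A1 and COL28A1 had only 1 LNCaP-EV library past the filter level and needed a LNCaP-RRM2 library to be tested. Per kilobase of transcript, the 3 collagen VI chains summed to 27.2 and 17.1 CPM in LNCaP-EV and 75.1 and 54.9 CPM in LNCaP-RRM2. The 6 collagen IV chains summed to 12.7 and 12.5 CPM per kilobase against 22.4 and 22.9. Within a collagen type the chain levels were far apart. In CPM per kilobase, COL6A1 stood at 23.3 and 14.4 in the LNCaP-EV libraries against 60.1 and 43.8 in the LNCaP-RRM2 libraries, and COL6A3 at 0.103 and 0.0870 in the LNCaP-EV libraries against 0.144 and 0.150 in the LNCaP-RRM2 libraries. On the same scale COL4A5 stood at 12.01 and 12.03 in the LNCaP-EV libraries against 21.4 and 21.9 in the LNCaP-RRM2 libraries, and COL4A6 at 0.314 and 0.194 in the LNCaP-EV libraries against 0.595 and 0.608 in the LNCaP-RRM2 libraries.

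Of the laminin chain genes, 5 of 10 tested rose and 0 were called lower (edgeR), among 11 measured, and at an unadjusted p below 0.05 these were 6 and 1. Among all genes tested 12.5% rose and 7.96% fell, and 23.0% and 29.5% passed the unadjusted p. LAMC1, the gamma chain of most laminins, was by far the most abundant laminin gene per kilobase, with 1052 and 1100.4 CPM in LNCaP-EV and 955 and 979 CPM in LNCaP-RRM2. It was lower in both LNCaP-RRM2 libraries but not called (log2 fold change -0.15, SE 0.07, edgeR adjusted p = 0.114). Of the 4 beta chain genes 3 rose. LAMB2, the beta2 chain, had 134 and 90.2 CPM in LNCaP-EV and 254 and 235 CPM in LNCaP-RRM2 and rose 2.18-fold (log2 fold change 1.13, SE 0.18, edgeR adjusted p = 0.00826; GC-adjusted 0.72). LAMB1, the beta1 chain, had 5.09 and 5.09 CPM in LNCaP-EV and 11.2 and 12.1 CPM in LNCaP-RRM2, with the libraries of a group alike, and rose 2.29-fold (log2 fold change 1.20, SE 0.13, edgeR adjusted p = 0.00373; GC-adjusted 1.19). LAMB3, the beta3 chain found in the laminin-332 of epithelial attachment, had 3.64 and 1.80 CPM in LNCaP-EV and 12.05 and 10.5 CPM in LNCaP-RRM2 and rose 4.11-fold (log2 fold change 2.04, SE 0.32, edgeR adjusted p = 0.00745; GC-adjusted 1.71). LAMB4, next to LAMB1 on chromosome 7, had 1.30 and 1.65 CPM in LNCaP-EV and 0.442 and 1.03 CPM in LNCaP-RRM2 and was not called (log2 fold change -0.99, SE 0.42, edgeR adjusted p = 0.109). It was called lower with a replicate block (log2 fold change -1.04, edgeR adjusted p = 0.0396) and without LNCaP-EV replicate 1 (-1.17, adjusted p = 0.0487).

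Of the 3 alpha chain genes tested 1 was called. LAMA5, the alpha5 chain of adult epithelial basement membranes, had 46.4 and 20.3 CPM in LNCaP-EV and 99.7 and 67.98 CPM in LNCaP-RRM2. Its groups did not overlap, but the LNCaP-EV libraries differed widely, and the 2.51-fold rise was close to the limit (log2 fold change 1.33, SE 0.40, edgeR adjusted p = 0.0447; GC-adjusted 0.67). DESeq2 did not call it (adjusted p = 0.0575), and reads of LAMA5-AS1 on the other strand cannot be told apart if strand was not used. LAMA3, the alpha3 chain of laminin-332, had 169 and 167 CPM in LNCaP-EV and 132 and 135 CPM in LNCaP-RRM2. It was lower in both LNCaP-RRM2 libraries, past the adjusted p but under the fold limit (log2 fold change -0.33, SE 0.06, edgeR adjusted p = 0.0107). LAMA1 had 7.34 and 7.33 CPM in LNCaP-EV and 8.44 and 8.58 CPM in LNCaP-RRM2 and was not called (log2 fold change 0.21, SE 0.13, edgeR adjusted p = 0.229). LAMC3, the gamma3 chain, had 15 and 7 counts in the LNCaP-EV libraries against 42 and 44 in the LNCaP-RRM2 libraries and a log2 fold change of 2.06. Without LNCaP-RRM2 replicate 1, LAMB2, LAMA5, LAMB3 and LAMC3 lost the call (adjusted p 0.0509 to 0.170), and without replicate 2 LAMA5 and LAMC3 did (0.0633 to 0.0705).

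**Figure D4:**
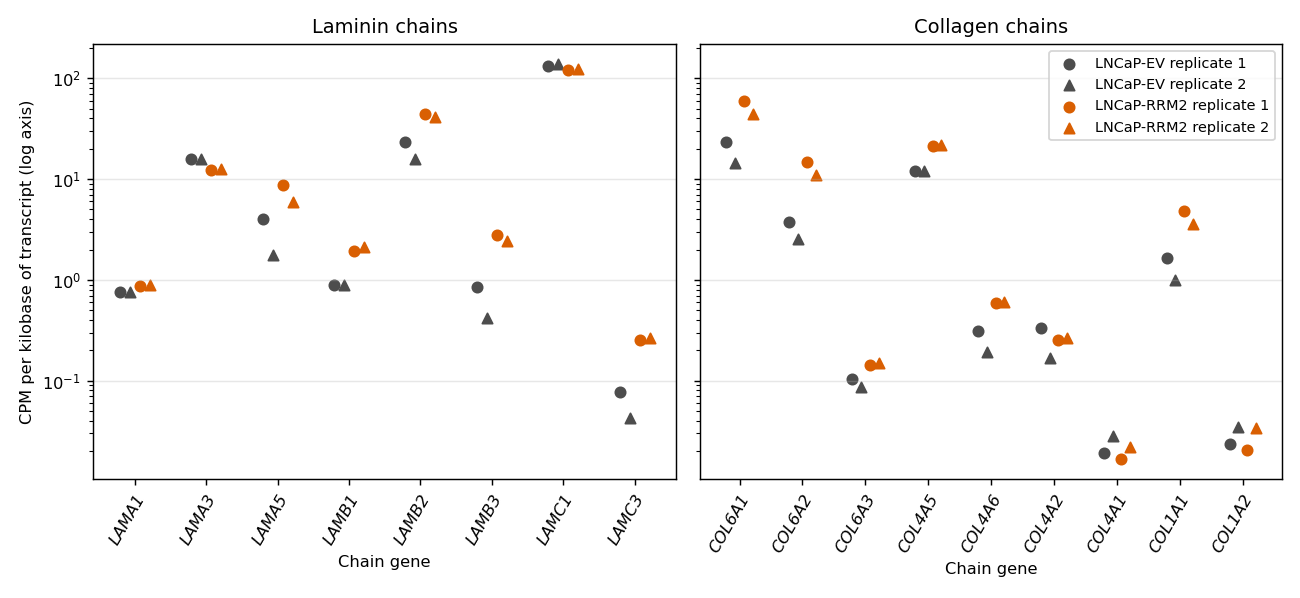
Level of laminin chain genes (left) and collagen VI, IV and I chain genes (right) in each library, in CPM per kilobase of transcript on a log axis. LAMC1 stands above 100 in every library, the plotted laminin beta chain points of LNCaP-RRM2 lie above those of LNCaP-EV (LAMB4, lower in LNCaP-RRM2, is not plotted), and COL6A3, COL4A1 and COL1A2 lie far below COL6A1, COL4A5 and COL1A1.

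Per kilobase, the laminin beta chains summed to 25.5 and 17.5 CPM in LNCaP-EV and 49.6 and 46.2 CPM in LNCaP-RRM2, 2.23-fold higher by the means. The alpha chains summed to 20.7 and 18.2 CPM per kilobase against 22.0 and 19.5, which overlap. The gamma chains summed to 134 and 140 CPM per kilobase against 122 and 125. LAMB2 made up most of the beta chain sum, at a mean of 19.7 CPM per kilobase in LNCaP-EV and 43.1 in LNCaP-RRM2. Its GC-adjusted log2 fold change was 0.72. These sums describe transcripts, were not adjusted for GC and were not tested. FN1 and LAMC1 together made up 71.4% and 76.7% of the summed CPM of all 64 genes in the LNCaP-EV libraries against 50.9% and 55.2% in the LNCaP-RRM2 libraries. The sum over all 64 was 3054 and 2922 CPM in LNCaP-EV and 3209 and 3061 CPM in LNCaP-RRM2, 1.05-fold by the means. Without FN1 and LAMC1 it was 874 and 680 CPM against 1576 and 1370 CPM, 1.90-fold.

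In the microfibril and elastic fibre group, 3 of 5 genes tested rose and 0 fell (edgeR), of 6 measured. Among all genes tested 12.5% rose and 7.96% fell. LTBP3 and LTBP1 encode latent TGF-beta binding proteins, which tether the inactive cytokine to fibrillin microfibrils. LTBP3 had 33.6 and 18.1 CPM in LNCaP-EV and 66.6 and 57.4 CPM in LNCaP-RRM2 and rose 2.39-fold (log2 fold change 1.26, SE 0.29, edgeR adjusted p = 0.0200). Its GC content of 67.8% was the highest of the tested matrix genes, and its GC-adjusted log2 fold change of 0.54 was under the fold limit. LTBP1 had 3.73 and 3.59 CPM in LNCaP-EV and 6.89 and 7.55 CPM in LNCaP-RRM2, with close replicates, and rose 1.97-fold (log2 fold change 0.98, SE 0.15, edgeR adjusted p = 0.00694; GC-adjusted 0.92). FBLN2, which encodes the elastic fibre protein fibulin-2, had 0.949 and 0.524 CPM in LNCaP-EV and 2.73 and 1.87 CPM in LNCaP-RRM2 and rose 3.06-fold (log2 fold change 1.61, SE 0.36, edgeR adjusted p = 0.0194; GC-adjusted 1.14). The fibrillin genes FBN1 and FBN2, which form the microfibril itself, were not called, with log2 fold changes of 0.21 and -0.55. All 3 risen genes lost the call without LNCaP-RRM2 replicate 1 (adjusted p 0.0620 to 0.125) and without replicate 2 (0.0542 to 0.0663).

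Of the crosslinking, matricellular and actin-binding genes, 3 of 5 tested rose and 0 fell (edgeR), of 6 measured. The shares of all genes tested were 12.5% and 7.96%. LOX encodes lysyl oxidase, which crosslinks collagen and elastin. It had 2.75 and 3.25 CPM in LNCaP-EV and 6.71 and 6.56 CPM in LNCaP-RRM2 and rose 2.21-fold (log2 fold change 1.15, SE 0.16, edgeR adjusted p = 0.00607). It has the lowest GC content of the tested matrix genes (39.6%), and its GC-adjusted log2 fold change was 1.24. SPARC, a collagen-binding matricellular protein, had 0.632 and 0.486 CPM in LNCaP-EV and 1.36 and 1.94 CPM in LNCaP-RRM2 and rose 2.92-fold (log2 fold change 1.55, SE 0.32, edgeR adjusted p = 0.0157; GC-adjusted 1.57). TAGLN, the actin-binding protein transgelin of smooth muscle, had 9.68 and 8.01 CPM in LNCaP-EV and 16.4 and 17.9 CPM in LNCaP-RRM2 and rose 1.94-fold (log2 fold change 0.95, SE 0.15, edgeR adjusted p = 0.00715; GC-adjusted 0.74). The LNCaP-RRM2 libraries were above the LNCaP-EV libraries for all 3. LOXL1 and LOXL2, relatives of LOX, were not called, with log2 fold changes of 0.59 and -0.26, though LOXL1 was called higher without LNCaP-EV replicate 1 (1.38, edgeR adjusted p = 0.00280). LOX, SPARC and TAGLN each lost the call without LNCaP-RRM2 replicate 1 (adjusted p 0.0600 to 0.0634) and without replicate 2 (0.0508 to 0.114). TAGLN overlaps PCSK7, COL18A1 overlaps SLC19A1, HSPG2 overlaps LDLRAD2 and COL9A3 overlaps TCFL5 on the other strand, and it is not stated whether reads were counted by strand.

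Genes that modify, fold, cut and crosslink collagen were read beside the collagens. Of 23 such genes tested, from a list of 30, 13 rose and 0 fell (median log2 fold change 0.66), and at an unadjusted p below 0.05 in edgeR 18 were higher and 0 lower. DESeq2 and limma-voom also called 0 of them lower. SERPINH1, called higher, passed the low-count filter through the LNCaP-RRM2 libraries alone, so it had to be higher there to be tested. With the GC trend removed 9 rose and 0 fell. Among all genes tested 12.5% rose and 7.96% fell, or 23.0% and 29.5% at the unadjusted p. After GC removal the shares of all genes were 10.9% and 10.6%. PLOD2, the lysyl hydroxylase of collagen telopeptides, had 0.443 and 0.711 CPM in LNCaP-EV and 7.92 and 7.26 CPM in LNCaP-RRM2 and rose 13.3-fold (log2 fold change 3.73, SE 0.25, edgeR adjusted p = 0.00209). P4HA1, a catalytic subunit of the prolyl 4-hydroxylase that stabilises the triple helix, had 62.1 and 68.5 CPM in LNCaP-EV and 171 and 178 CPM in LNCaP-RRM2 and rose 2.68-fold (log2 fold change 1.42, SE 0.08, edgeR adjusted p = 0.00176). PLOD1, the lysyl hydroxylase of the helix, had 125 and 96.2 CPM in LNCaP-EV and 275 and 271 CPM in LNCaP-RRM2 and rose 2.47-fold (log2 fold change 1.31, SE 0.13, edgeR adjusted p = 0.00297; GC-adjusted 0.98). The groups were far apart for all 3 genes. The list had 6 and 5 genes called higher without LNCaP-RRM2 replicate 1 and 2.

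Of 24 matrix receptors tested, from a list of 28 integrins, syndecans and other receptors, 9 rose and 0 fell (median log2 fold change 0.56), and at an unadjusted p below 0.05 in edgeR 20 were higher and 1 lower. ITGA11, called higher, and ITGB6, not called, passed the low-count filter through the LNCaP-RRM2 libraries alone. Both had to be higher there to be tested. With the GC trend removed 10 rose and 2 fell. Among all genes tested 12.5% rose and 7.96% fell, or 23.0% and 29.5% at the unadjusted p. After GC removal the shares of all genes were 10.9% and 10.6%. SDC4, a heparan sulfate co-receptor for fibronectin, had 39.5 and 42.5 CPM in LNCaP-EV and 70.5 and 71.97 CPM in LNCaP-RRM2 (log2 fold change 0.80, SE 0.08, edgeR adjusted p = 0.00315; GC-adjusted 0.80). ITGA6, the laminin-binding integrin alpha chain, had 78.7 and 81.7 CPM in LNCaP-EV and 125 and 129 CPM in LNCaP-RRM2 (log2 fold change 0.66, SE 0.07, edgeR adjusted p = 0.00317; GC-adjusted 0.74). ITGA5, the alpha chain of the classical fibronectin receptor, had 33.7 and 28.4 CPM in LNCaP-EV and 51.6 and 52.8 CPM in LNCaP-RRM2 (log2 fold change 0.75, SE 0.11, edgeR adjusted p = 0.00629), and with a GC-adjusted log2 fold change of 0.42 it was under the fold limit and lost the call. The groups did not overlap for any of the 3. Leaving out LNCaP-RRM2 replicate 1 or 2 left 3 and 4 receptors called higher.

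Of 30 other matrix glycoproteins and proteoglycans tested, from a list of 67 of which 45 were in the table, 15 rose and 0 fell (median log2 fold change 1.13), and at an unadjusted p below 0.05 in edgeR 17 were higher and 2 lower. SRPX2, FREM1 and BCAN, all called higher, passed the low-count filter through the LNCaP-RRM2 libraries alone. AEBP1 and TGFBI, which were not called, did so too. Such genes had to be higher in LNCaP-RRM2 to be tested, and 51.4% of all of them were called higher. With the GC trend removed 14 rose and 3 fell. Among all genes tested 12.5% rose and 7.96% fell, or 23.0% and 29.5% at the unadjusted p. After GC removal the shares of all genes were 10.9% and 10.6%. PXDN, the peroxidase that crosslinks collagen IV, had 44.7 and 36.7 CPM in LNCaP-EV and 141 and 133 CPM in LNCaP-RRM2 and rose 3.36-fold (log2 fold change 1.75, SE 0.11, edgeR adjusted p = 0.00209; GC-adjusted 1.57). LTBP2, a microfibril protein also counted on the TGF-beta list, had 2.81 and 2.58 CPM in LNCaP-EV and 6.85 and 6.67 CPM in LNCaP-RRM2 and rose 2.50-fold (log2 fold change 1.32, SE 0.15, edgeR adjusted p = 0.00395; GC-adjusted 1.06). EFEMP2, the gene of the elastic fibre protein fibulin-4, had 0.601 and 0.374 CPM in LNCaP-EV and 2.17 and 1.91 CPM in LNCaP-RRM2 and rose 4.10-fold (log2 fold change 2.04, SE 0.30, edgeR adjusted p = 0.00668; GC-adjusted 1.52). Only 2 and 4 of the list were called higher without LNCaP-RRM2 replicate 1 and 2.

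TGF-beta is a classical inducer of matrix genes, so its ligands, receptors and targets were read in the same way. Of 25 genes tested 7 rose and 2 fell (median log2 fold change 0.25), where 12.5% and 7.96% of all genes tested were called, and TGFB1 was not analysed here. At an unadjusted p below 0.05 in edgeR 12 were higher and 7 lower, where 23.0% and 29.5% of all genes tested were. With the GC trend removed 7 rose and 3 fell (SMAD6, SMAD7 and SKI), where 10.9% and 10.6% of all genes tested did. TGFB3, called higher, passed the low-count filter through the LNCaP-RRM2 libraries alone, so it had to be higher there to be tested. TGFB2, a ligand, had 2.09 and 2.06 CPM in LNCaP-EV and 6.23 and 7.33 CPM in LNCaP-RRM2 (log2 fold change 1.71, SE 0.17, edgeR adjusted p = 0.00313; GC-adjusted 1.80), and INHBB, an activin subunit, had 4.71 and 3.78 CPM in LNCaP-EV and 12.6 and 11.5 CPM in LNCaP-RRM2 (2.84-fold, SE of the log2 value 0.17, edgeR adjusted p = 0.00358). BAMBI, a decoy receptor that dampens signalling, had 40.5 and 40.3 CPM in LNCaP-EV and 69.8 and 71.5 CPM in LNCaP-RRM2 (log2 fold change 0.81, SE 0.07, edgeR adjusted p = 0.00293). The 2 genes that fell encode inhibitors of SMAD signalling, SKIL with 51.2 and 54.2 CPM in LNCaP-EV and 33.7 and 34.6 CPM in LNCaP-RRM2 (log2 fold change -0.63, SE 0.08, edgeR adjusted p = 0.00517) and SMAD6 with 8.16 and 7.97 CPM in LNCaP-EV and 5.60 and 5.13 CPM in LNCaP-RRM2 (log2 fold change -0.59, SE 0.14, edgeR adjusted p = 0.0229). Past the adjusted p but under the fold limit, SMAD2 (log2 fold change -0.49), SMAD4 (-0.36), SMURF1, SMURF2 and SMAD7 were lower. ACVR1B, ACVR2B and SMAD3 were higher in the same way. With a GC-adjusted log2 fold change of -0.53 SKIL lost the call, and with -0.94 SMAD6 kept it. Both were close to the fold limit, and the count of lower genes was 0 under 3 other scalings, with DESeq2, and without LNCaP-EV replicate 2 or either LNCaP-RRM2 library, and 1 without LNCaP-EV replicate 1.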

How the data were processed

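RNA-seq of 2 LNCaP-EV and 2 LNCaP-RRM2 libraries was used, grouped by sample title. The authors deposited 1 table of estimated counts (expected counts, not all whole) for each gene, unscaled. Per the labels and methods, reads were analysed in Partek Flow. Not given in the sources used here are its version, the aligner, the genome build, the annotation and the use of strand. The table held 17141 genes, each with a total of at least 10 counts, and 0 columns belonged to no sample. The positions of all 64 matrix genes overlapped RefSeq GRCh38 positions, and 1 was subtracted from printed ends, since the table's last position was 1 above the RefSeq end for 12 of them.

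Counts were rounded and filtered with filterByExpr, and TMM scaling was applied (edgeR 4.0.16, R 4.3.3). The groups were compared by edgeR's quasi-likelihood test without covariates, with Benjamini-Hochberg adjustment over 15162 genes. Calls needed a fold change over 1.5 at an adjusted p under 0.05. SE is an approximate standard error, the size of the log2 fold change divided by the square root of its quasi-likelihood F. CPM use TMM-scaled totals. The script was tested on simulated data. Library totals were 26601061 to 32601519, so counting error matters mainly for genes under 1 CPM. Levels per kilobase and GC content use the longest protein-coding transcript of each gene in GENCODE. The GC trend of each library's log ratio to the mean was fitted by lowess (span 0.3), removed and centred on the median gene.

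Genes named were TNC, FN1, every called matrix gene averaging 1 CPM or more, the 2 most abundant of each group, collagen IV pair partners, and up to 3 called genes per direction with the smallest p, also averaging 1 CPM or more, from each further list. Called genes under 1 CPM are given by counts. A few uncalled genes are named beside their group, and some items are not reported here. The genes and lists were chosen with earlier results of these data known. Alternatives were size factors of DESeq2 1.42.0, total counts, upper-quartile scaling, no filter, a stricter filter (1 CPM in 2 libraries), the DESeq2 Wald test, limma-voom (limma 3.58.1), a replicate block, leaving out each library, GC removal with and without the block, and no fold limit. GC removal centred on the mean was chosen after seeing the data.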

Additional observations from a re-analysis of the deposited data

How the results depend on the processing

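All 32 matrix genes called higher and FN1 were shared with the fits using DESeq2 size factors, total counts, upper-quartile scaling, no filter, limma-voom or a replicate block, and 29 and 28 of the 32 with the stricter filter and the DESeq2 test. THBS1 passed the fold limit under those 3 scalings, the DESeq2 test and all GC removals. The lower count was 2 with the replicate block, with GC removal and the block, and without a fold limit, which left all genes at 3695 lower. The median log2 fold change of the matrix genes was 1.19 with total counts, 1.21 with upper-quartile scaling, 1.02 without a filter, 1.19 with the stricter filter, 0.85 with GC removal with or without the block, and 0.96 with centring on the mean. The receptor list had 14 genes higher with upper-quartile scaling and 16 without a fold limit, and 2 lower with GC removal with or without the block and 1 with centring on the mean. The other matrix glycoproteins had 1 lower with the block and 3 with GC removal with or without it. The TGF-beta list had 0 lower with DESeq2 size factors, total counts, upper-quartile scaling and the DESeq2 test, 1 without a filter and with the stricter filter, and 7 without a fold limit. Where no construction of the fit shows it, the cause was not tested. Leaving out 1 library in turn gave 6 to 32 matrix genes higher and 1 to 2 lower, a median of 1.00 to 1.30, 427 to 2878 of all genes higher and 318 to 1579 lower, 5 to 14 collagen-processing genes higher, 3 to 13 receptors higher and 0 to 1 lower, 2 to 17 other matrix glycoproteins higher and 0 to 1 lower, and 0 to 1 TGF-beta genes lower. Same-numbered libraries deviated together (r = 0.467 across genes, which are not independent), but with 2 numbers and no statement in the labels they share only a number. The block gave 2346 genes higher and 1255 lower overall and, among matrix genes, kept all 33 calls and added 4, LAMB4 as lower and COL11A2, COL9A2 and 1 more as higher. Of all calls 61.1% were higher, against 70.9% with DESeq2 size factors, 72.3% with total counts, 75.0% with upper-quartile scaling, 50.6% with GC removal and 42.3% without a fold limit; of the matrix genes' calls it was 97.0%, and never under 85.7%. With 2 libraries a group, a missed threshold does not show that a gene was unaltered, and strand, overlapping genes and cultures limit single values.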

Other observations

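Some matrix genes lie next to each other, with no other gene of the table starting between them, and their values differed within a pair. On chromosome 2, COL3A1 had a log2 fold change of 0.92 and COL5A2, 19168 bases away, had -0.30. On chromosome 7, LAMB1 and LAMB4 lie 20191 bases apart with log2 fold changes of 1.20 and -0.99. On chromosome 21, COL6A1 and COL6A2 lie 93069 bases apart with 1.46 and 2.02. Of these 6 genes COL3A1, LAMB1, COL6A1 and COL6A2 were called. The difference within a pair was not tested, and the pairs were chosen after their values were seen.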
